A study of Mus musculus with 2 samples.

Results

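The subject is a list of 42 transcripts typical of myeloid cells (macrophages, monocytes and their relatives) as they appear in cultures of mouse skin fibroblasts. The list was drawn up with results of these data in view, and its members were found by gene symbol in a count table of 19674 genes. All 42 were in the table. Of these, 36 reached 50 counts when the libraries were added together and are called measured, as were 13534 genes in all. The other 6, Clec4a2, Fcgr1, Lst1, Aif1, Cd83 and Fcgr4, were under that minimum. The members nearest the minimum were Ncf4 with 65 and Was with 70 summed counts on one side, and Clec4a2 with 44 and Fcgr1 with 34 on the other.

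The RNA came from 2 cultures of a wild-type fibroblast cell line from mouse skin, labelled MDFB, and was sequenced in bulk. One culture was given vehicle and the other IL-17A, an inflammatory cytokine of skin. The labels used here state no dose, treatment time, strain or age, and each group held 1 library. The vehicle library held 24427027 counts and the IL-17A library 23559416. There is therefore no replicate check, no test and no p-value: each ratio describes a pair of libraries, and its interval covers counting error only. A difference of 2-fold or more between scaled counts was the limit for calling a gene higher or lower.

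Macrophages form from monocytes or embryonic precursors under the lineage factor PU.1, encoded by Spi1, and the growth factor receptor Csf1r. They sense immune complexes through Fc receptors and microbial sugars through C-type lectins. Many of these receptors signal through the short adaptors Fcer1g and Tyrobp, which carry tyrosine activation motifs (ITAMs), and engulfed particles meet an oxidase built around Cybb and Cyba. Skin holds many macrophages beside its fibroblasts.

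Transcripts of every listed gene were found in both libraries, but most were scarce. The summed level of all members was 542.8 CPM with vehicle and 873.5 CPM in the IL-17A library, where CPM is the count relative to the scaled library size. As a share of raw counts this was 0.0556% (exact 95% Clopper-Pearson interval 0.0546 to 0.0565) and 0.0853% (0.0841 to 0.0865). Lyz2, Arhgdib and Cyba alone took 61.6% of the members' counts with vehicle and 70.4% with IL-17A. Without these 3 genes, singled out after their values were seen, the sums were 208 and 258 CPM. By comparison, 15 fibroblast marker genes summed to 61792 CPM with vehicle and 46998 with IL-17A. Most of both sums was collagen, named after its values were seen. Col1a1 held 23622.6 and 15153.2 CPM, Col1a2 16207.5 and 11793, and Col3a1 9351.5 and 5289.3. Of the 15 genes, 7 had log2 ratios above 0 and 8 below, with a median of -0.06.

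Among the 36 measured members, 9 stood 2-fold or more above vehicle in the IL-17A library, where 5.19% of all measured genes did, and 4 stood as far below, where 3.69% of all did. The members were chosen with this contrast known, so these counts describe the list and support nothing further. Their median log2 ratio was 0.31, beside 0.00 over all measured genes. A log2 ratio within 0.5 of 0 was found for 14 of the 36 members and for 77.9% of all measured genes. The counting interval spanned a ratio of 1 for 13 members, lay wholly above it for 16 and wholly below it for 7. The matching shares of all measured genes were not computed, so these interval counts describe the members only. The plot of ratios by role shows the lectins and the oxidase subunits Cybb, Ncf4 and Cyba to the right. The oxidase subunit Ncf1 lies near level, and a pair of surface receptors lies far to the left.

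**Figure D1:**
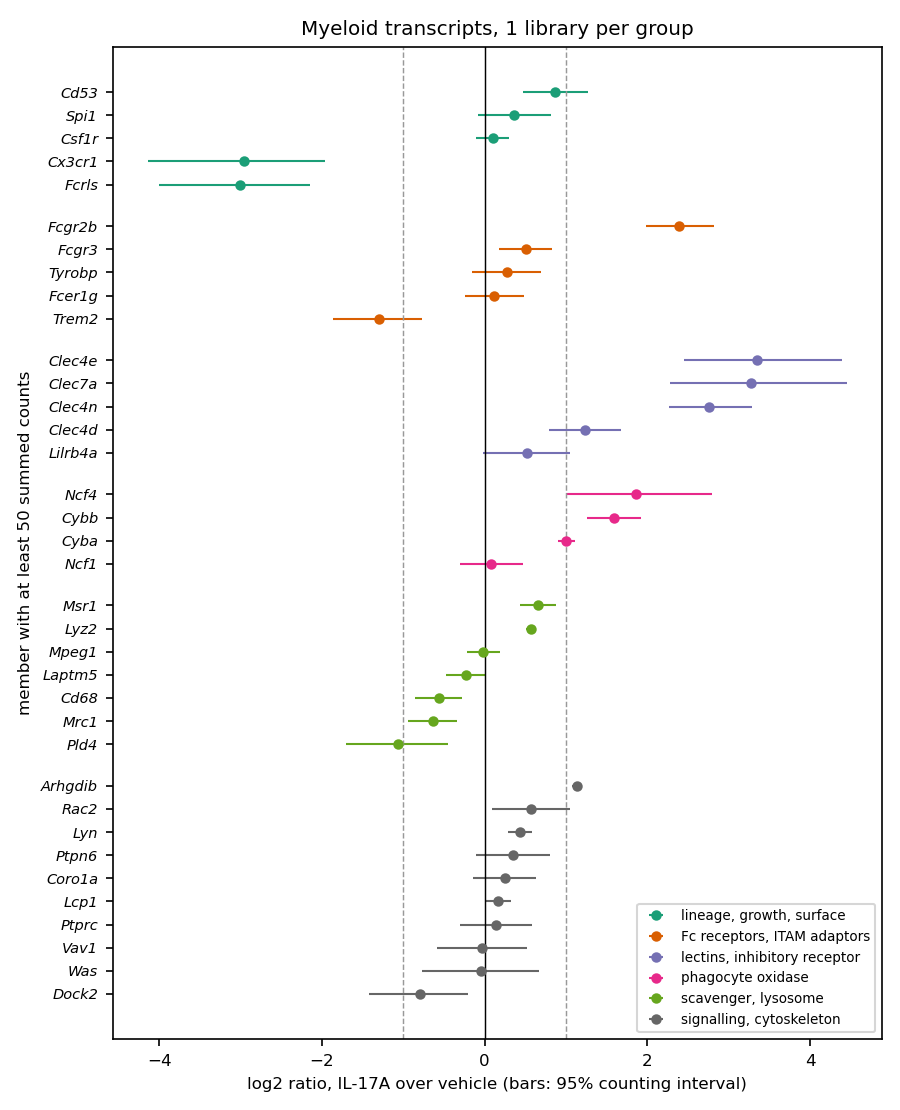
Log2 ratio of IL-17A over vehicle for the 36 measured members, grouped and coloured by role. Points are ratios of scaled counts, bars are 95% counting intervals, and dashed lines mark 2-fold; Clec4e is highest at 3.35 and Fcrls lowest at -3.01.

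Of the 8 lineage, growth and surface genes on the list, 5 were measured, 2 of them at least 2-fold lower and none higher. Among all measured genes, 3.69% were as far lower and 5.19% as far higher. Spi1 and Csf1r of this group differed little between the libraries, as did Ptprc, which is listed with the signalling and cytoskeletal genes. Ptprc, the pan-leukocyte phosphatase CD45, had 87 vehicle and 88 IL-17A counts. Spi1 had 81 and 96 counts. Csf1r, the receptor for macrophage colony-stimulating factor, had 408 and 402. The intervals of these 3 genes spanned a ratio of 1, with log2 ratios of 0.14 (interval -0.31 to 0.58), 0.37 (-0.08 to 0.81) and 0.10 (-0.10 to 0.30). Cd53, a leukocyte tetraspanin, had 86 vehicle and 144 IL-17A counts, a ratio of 1.82 (95% counting interval 1.38 to 2.41). In bulk RNA, fewer cells of a type and less RNA per cell cannot be told apart.

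The 2 lower genes of this group, both surface receptors, stood far below vehicle. Cx3cr1, the receptor for the membrane-bound chemokine Cx3cl1, had 76 vehicle and 9 IL-17A counts, 7.77-fold lower (95% counting interval 3.88 to 17.6). Fcrls, an Fc receptor-like gene used as a marker of microglia, had 105 and 12 counts and was 8.05-fold lower (4.42 to 16.1). These were the only measured members whose interval lay wholly below a 2-fold reduction. Aif1, which encodes the macrophage protein IBA1, had 5 counts in each library. Lst1 had 5 and 9, and Cd83, an activation marker of dendritic cells, had 2 and 4, too few to rank.

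Fc receptors differed among themselves in their ratios. Fcgr2b, the inhibitory receptor for IgG, had 59 vehicle and 285 IL-17A counts, 5.25-fold higher (3.95 to 7.07). Fcgr3, an activating receptor, had 142 and 185 counts, a ratio of 1.42 (1.13 to 1.77). The high-affinity receptor Fcgr1, under the minimum, had 28 vehicle and 6 IL-17A counts. Fcgr4 had 2 and 1. Per length, Fcgr3 stood above Fcgr2b in both libraries, by less with IL-17A. Fcgr2b was at 0.41 RPKM (CPM per kilobase of exon) with vehicle and 2.14 with IL-17A, and Fcgr3 at 3.27 and 4.63 RPKM.

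The adaptors of the activating receptors were level. Fcer1g, the common gamma chain, had 133 counts in each library, a log2 ratio of 0.12 (interval -0.24 to 0.48). Tyrobp, also known as DAP12, had 92 with vehicle and 102 with IL-17A, a log2 ratio of 0.27 (-0.15 to 0.69). Trem2, a lipid-sensing receptor that pairs with Tyrobp, had 110 and 41 counts and was 2.47-fold lower (1.71 to 3.63). Fcgr2b, Fcgr4, Fcgr3 and Fcer1g lie together on chromosome 1 between 170958617 and 171234365 in GENCODE M21 (build GRCm38, also called mm10), a span of 275.7 kb, so genes next to each other on the chromosome differed in their ratios.

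C-type lectin receptors held the highest ratios of the whole list. Clec4e, or Mincle, which binds mycobacterial glycolipids, had 11 vehicle and 103 IL-17A counts, 10.2-fold higher (5.46 to 21). Clec7a, or Dectin-1, the receptor for fungal beta-glucan, had 9 and 80 counts and was 9.66-fold higher (4.84 to 21.9). For Clec4n, or Dectin-2, which binds mannans, 39 and 242 counts gave 6.74-fold (4.79 to 9.72). Clec4d, a partner of Clec4e, was 2.34-fold higher (1.73 to 3.20), from 64 to 138 counts. The low vehicle counts of Clec4e and Clec7a leave their intervals wide.

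The inhibitory receptors of the same group did not share that ratio. Clec4a2, a lectin with an inhibitory tail, had 25 vehicle and 19 IL-17A counts and was under the minimum. Lilrb4a, an inhibitory immunoglobulin-like receptor, had 54 and 71, a ratio of 1.43 (0.99 to 2.08). Clec4a2, Clec4n, Clec4d and Clec4e lie within 183.4 kb of chromosome 6, between 123106428 and 123289870, and Clec7a lies on the same chromosome at 129461591 to 129472779. Per length, Clec4n held place 22 of the 42 members with vehicle (1.10 RPKM) and place 5 with IL-17A (7.41 RPKM).

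Promoter sequences are shown for 4 members that differ in their ratios, Clec4e and Clec7a among the highest, Trem2 among the lower and Vav1 near level, since PU.1 is the factor that these genes are best known to share. Each window is the 250 bases before the RefSeq start of build GRCm38.p6, read 5′ to 3′ on the gene's strand, and none overlaps an annotated exon of its own gene. Capitals mark GAGGAA, the core of the PU.1 motif, on either strand (TTCCTC is its reverse complement), its longer form GAGGAAGT, and the C/EBP motif TTGCNNAA. The windows lie at chr6:123289872-123290121 (minus strand), chr6:129472780-129473029 (minus), chr17:48346151-48346400 (plus) and chr17:57278850-57279099 (plus).
Clec4e: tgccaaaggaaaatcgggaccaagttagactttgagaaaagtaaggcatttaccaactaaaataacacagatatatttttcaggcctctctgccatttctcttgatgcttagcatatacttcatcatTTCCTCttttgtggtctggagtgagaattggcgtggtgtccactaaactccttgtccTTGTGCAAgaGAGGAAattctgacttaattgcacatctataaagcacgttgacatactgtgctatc
Clec7a: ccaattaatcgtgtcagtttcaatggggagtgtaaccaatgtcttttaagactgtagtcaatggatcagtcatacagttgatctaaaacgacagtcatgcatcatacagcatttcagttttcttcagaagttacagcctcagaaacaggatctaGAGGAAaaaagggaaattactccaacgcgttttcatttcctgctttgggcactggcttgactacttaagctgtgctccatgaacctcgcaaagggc
Trem2: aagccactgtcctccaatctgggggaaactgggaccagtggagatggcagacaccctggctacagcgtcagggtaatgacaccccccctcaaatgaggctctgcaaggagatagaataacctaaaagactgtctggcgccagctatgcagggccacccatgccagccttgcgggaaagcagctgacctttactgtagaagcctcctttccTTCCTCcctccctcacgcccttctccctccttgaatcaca
Vav1: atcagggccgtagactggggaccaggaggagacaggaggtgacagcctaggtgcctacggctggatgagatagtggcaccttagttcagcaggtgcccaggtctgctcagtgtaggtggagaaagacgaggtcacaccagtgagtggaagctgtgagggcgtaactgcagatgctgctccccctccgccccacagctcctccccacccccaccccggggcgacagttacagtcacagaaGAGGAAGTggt

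In these windows GAGGAA began 123 and 56 bases before the start of Clec4e, the latter close behind a C/EBP match that began 66 bases before it. It began 96 bases before the start of Clec7a, 40 before Trem2 and 11 before Vav1, where the longer GAGGAAGT was complete. Promoter entries of 300 bases (250 before to 50 after the start) were at hand for 27 of the 36 measured members. GAGGAA was found on either strand in 17 of the 27 (63.0%) and in 30.0% of 9812 measured genes with an entry. The longer GAGGAAGT, which contains it, was in 3 of 27 (11.1%) and 3.45%. TTGCNNAA was in 4 (14.8%) and 9.69%, and the NF-kB motif in 2 (7.41%) and 12.5%. Genes with several starts were counted once if any window matched, and a match of letters is a description, not a binding site. Measured members without an entry were Spi1, Csf1r, Tyrobp, Clec4n, Lilrb4a, Ncf4, Msr1, Lyn and Rac2, and of those under the minimum Lst1 and Cd83 had none.

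Of the 4 oxidase genes on the list, 3 were called higher, as were 5.19% of all measured genes. Cybb, the catalytic subunit of the phagocyte NADPH oxidase, had 104 vehicle and 287 IL-17A counts, 3.0-fold higher (2.39 to 3.79). Ncf4, a cytosolic subunit, had 15 and 50 and was 3.62-fold higher (2.0 to 6.95). Cyba, the membrane partner that also serves non-phagocyte oxidases, had 1117 and 2057. Its ratio of 2.0 (1.86 to 2.15) sat on the limit, with a log2 ratio of 1.00, and fell short of it under each of 3 other scalings, where the log2 ratio ranged from 0.93 to 1.00. Ncf1, the organising cytosolic subunit, had 118 and 115 counts, a log2 ratio of 0.08 (-0.30 to 0.47).

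None of the 5 measured genes on the list of other oxidase components was past 2-fold, and 12332 of all 13534 measured genes lay inside it too. Rap1a and Nox4, the latter an oxidase of fibroblasts and other non-phagocytes, had log2 ratios of -0.23 and -0.53. Per length, Cybb stood below Nox4 with vehicle, at 0.72 against 1.92 RPKM, and above it with IL-17A, at 2.15 against 1.33 RPKM.

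Scavenger and lysosomal genes lay closer to level and on both sides of it. Lyz2, the lysozyme of macrophages, was the member with most vehicle counts, 3836 against 5227 with IL-17A, a ratio of 1.48 (1.42 to 1.54). Msr1, a scavenger receptor for modified lipoproteins, had 298 and 431, a ratio of 1.57 (1.35 to 1.83). Mpeg1, the pore-forming perforin-2, had 430 and 391, and Laptm5, a lysosomal membrane protein, 330 and 259, both with intervals spanning 1. On the lower side were Mrc1, the mannose receptor, with 248 and 147 counts (1.55-fold lower, 1.26 to 1.92) and Cd68, with 270 and 168 (1.48-fold lower, 1.22 to 1.80). Pld4, an endolysosomal nuclease, was the 1 member of this group past the limit, with 75 and 33 counts, 2.09-fold lower (1.37 to 3.25). Among all measured genes, 3.69% were at least 2-fold lower.

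Of 10 signalling and cytoskeletal genes of leukocytes, 9 lay inside 2-fold, as did 12332 of the 13534 measured genes. Arhgdib, an inhibitor of small GTPases in blood cells, was the exception: 3408 vehicle and 6870 IL-17A counts, 2.19-fold higher (2.10 to 2.28). Lyn, a Src-family kinase, had 668 and 832, a ratio of 1.35 (1.22 to 1.5). Rac2, the Rac GTPase of blood cells, had 66 and 90, a ratio of 1.48 (1.07 to 2.07). Dock2, an activator of Rac, had 70 and 37 and was 1.74-fold lower (1.15 to 2.67). The interval of Lcp1, the actin bundler L-plastin, ran from 1.00 to 1.25 around 612 and 631 counts. Intervals spanned a ratio of 1 for Ptpn6 (77 and 90 counts), the phosphatase SHP-1, and Coro1a (112 and 122), an actin regulator. They did so too for Vav1 (60 and 54), an exchange factor, and Was (37 and 33), which drives actin branching. Ptprc, also of this group, was described above.

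**Figure D2:**
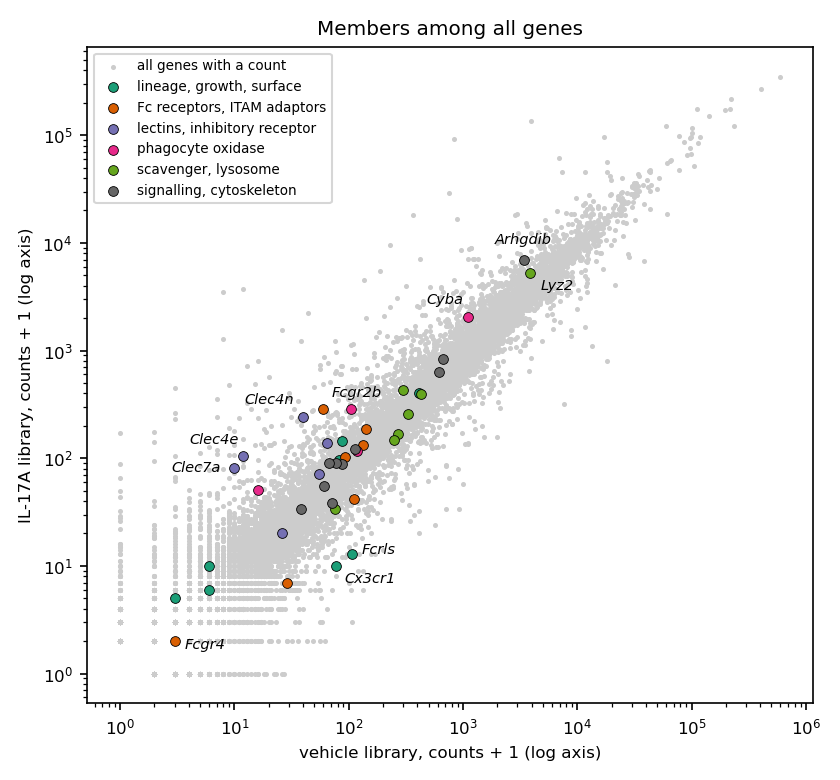
Counts plus 1 in the vehicle library (horizontal, log axis) and the IL-17A library (vertical, log axis) for all genes with a count (grey) and the 42 members (coloured by role). Among the members Lyz2, Arhgdib and Cyba lie highest on both axes, and Cx3cr1 and Fcrls lie below the cloud of points.

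Levels per length set the members against close relatives, chosen as genes expressed more widely. With vehicle the members had a median of 1.10 RPKM, from 0.03 for Cd83 to 116.6 for Lyz2, and with IL-17A a median of 1.38, from 0.03 for Fcgr4 to 174.9 for Arhgdib. Rac2 stood at 0.93% of the level of Rac1 with vehicle and 1.43% with IL-17A. Lcp1 stood at 4.22% and 5.36% of Pls3, and Was at 5.77% and 6.10% of Wasl. Ptprc was at 1.39% and 1.46% of Ptpra, Ptpn6 at 2.83% and 3.50% of Ptpn11, Dock2 at 1.34% and 1.10% of Dock1.

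A few members were not rare beside their relatives. Arhgdib was at 21.9% of Arhgdia with vehicle and 47.6% with IL-17A, while Arhgdia itself had a log2 ratio of 0.01. Lyn exceeded Yes1, at 136% and 175%, and was at 37.2% and 27.3% of Src and at 21.5% and 36.2% of Fyn. Vav1 was at 23.7% and 21.5% of Vav2, and at 162.8% and 95.6% of Vav3, which itself stood at only 0.40 and 0.67 RPKM. None of the 20 relatives was past 2-fold, and 12332 of all 13534 measured genes lay inside it too. Among the relatives, Src and Vav3 had the highest log2 ratios, 0.88 and 0.74, and Nox4 and Dock1 the lowest, -0.53 and -0.51. Between these lay Cd9 at 0.32, Coro1b 0.19, Laptm4b 0.12, Vav2 0.11, Yes1 and Ptpra both 0.07, Lamp1 and Ptpn11 both 0.04, Rac1 -0.05, Coro1c -0.08, Laptm4a -0.11, Wasl -0.13, Pls3 -0.18, Mrc2 -0.25 and Fyn -0.32.

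**Figure D3:**
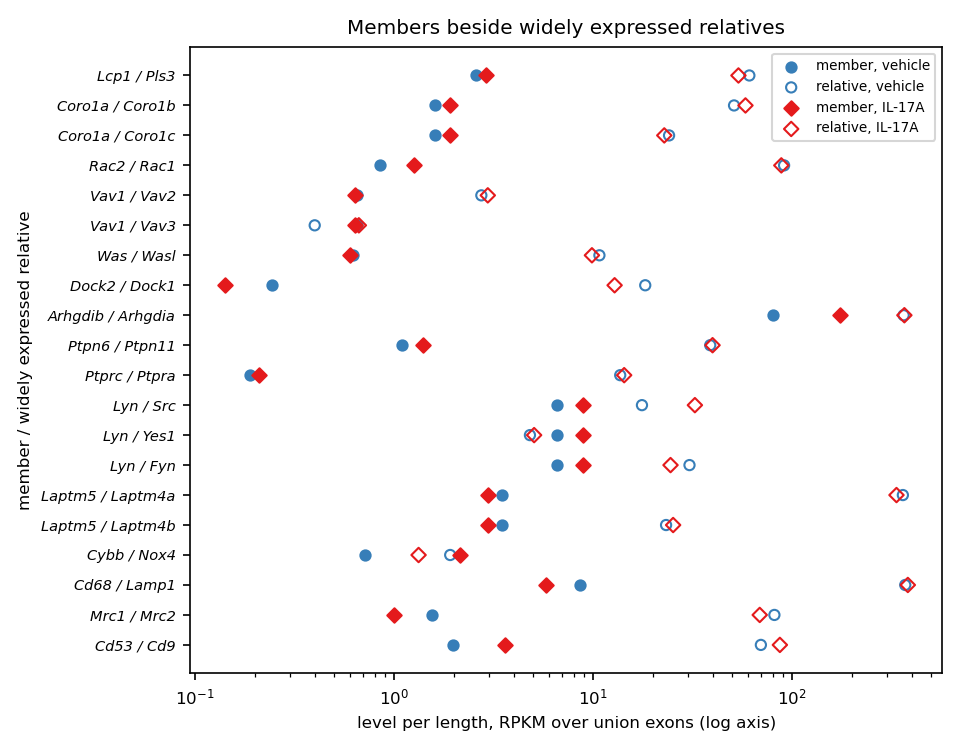
Level per length in RPKM (log axis) of members (filled) and their relatives (open), 1 pair of genes per line. Circles are the vehicle library and diamonds the IL-17A library. Rac2, Was and Lcp1 lie far left of their relatives, Lyn lies right of Yes1, and Cybb passes Nox4 in the IL-17A library.

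Macrophage genes outside the members were found on both sides of a ratio of 1, with 17 above and 21 below. Of 54 such genes in the table, 38 were measured, 5 were at least 2-fold higher and 5 at least 2-fold lower, with a median log2 ratio of -0.10. Over all measured genes the shares were 5.19% higher and 3.69% lower. Their summed level was 521.4 CPM in the vehicle library and 569.7 in the other, of which Gpnmb alone, a glycoprotein also made outside macrophages and named after its values were seen, held 310.5 and 359.3. Cd33, an inhibitory sialic acid receptor, had 64 and 265 counts (4.50-fold higher, 3.41 to 6.01) and Siglec1, the sialoadhesin of macrophages, 65 and 244 (4.08-fold, 3.09 to 5.45). C1qc, a chain of complement C1q, had 362 and 78 counts (4.27-fold lower, 3.34 to 5.53). The other C1q chains C1qa and C1qb, named after their values were seen, were 3.57-fold and 3.17-fold lower. The macrophage surface marker Adgre1 (F4/80) had 194 and 170 counts. Timd4 and Chil3 were at 0 in both libraries.

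Downstream of the ITAM adaptors, 2 of 20 measured signalling genes were at least 2-fold higher and none lower, with a median log2 ratio of 0.16. Of all measured genes, 5.19% were as far higher and 3.69% as far lower. Lcp2, the scaffold SLP-76, had 24 and 71 counts and was 3.22-fold higher (2.0 to 5.34). Malt1, the protease that links these receptors to NF-kB, was 2.54-fold higher (2.10 to 3.08). Syk, the kinase that binds phosphorylated ITAMs, had 154 and 196.

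Markers of T, NK and B cells, of mast cells and basophils, and of dendritic and Langerhans cells were mostly at or near 0. T and NK cell genes summed to 2.92 CPM (vehicle) and 1.69 CPM (IL-17A), with 9 of 15 at 0 in both libraries, among them Cd3d, Cd3e and Cd3g, and 1 measured, Lck, which was lower at 45 and 20 counts. Sums were 0.20 and 0.52 CPM for 4 B cell genes, 0.32 and 1.00 for 7 genes of mast cells and basophils, and 3.56 and 6.04 for 12 genes of dendritic and Langerhans cells. Of these lists only the last had measured genes, H2-Ab1 (27 and 54 counts, higher) and Zbtb46 (54 and 58). In it Xcr1, Clec9a, Flt3, Cd209a and H2-Aa were at 0, and in the mast cell list Cpa3, Mcpt4, Tpsb2, Cma1 and Ms4a2. Each count of 0 allows up to 3 counts, or 0.12 CPM with vehicle and 0.13 with IL-17A. Among the leukocyte lists, the members and the other macrophage genes had the highest sums in both libraries. These were also the longest of those lists, at 42 and 54 genes in the table, which raises a sum. Adgre1, Csf1r, Spi1 and Mpeg1 were measured, whereas 16 of the 54 other macrophage genes were under the minimum, among them Cd163 (0 and 1 counts), Ccr2 (0 and 2), Vsig4 (1 and 0) and Lyve1 (11 and 20), and so were the members Aif1 and Fcgr1. Which cells in the culture carried each transcript was not tested.

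Some marker lists differed between the libraries beside the members. The 7 neutrophil genes summed to 3.20 CPM (vehicle) and 30.3 CPM (IL-17A), 618 of the 698 IL-17A counts being Mmp8 and 64 Camp, while Cxcr2 and Retnlg were at 0 and Csf3r had 1 and 3 counts. The 6 osteoclast genes summed to 36.4 and 76.6 CPM, carried by Itgb3 (858 and 1534 counts) and Calcr (1 and 176), the 1 called higher of 3 measured, with Acp5 at 27 and 30. Endothelial genes summed to 12.1 and 9.26 CPM. Of 5 measured, 2 were lower, beside 3.69% of all measured genes. These were Erg and Tek, at log2 ratios of -2.44 and -1.32, and Cdh5 stood at 0.63. Under the minimum, Pecam1 had 11 vehicle and 33 IL-17A counts, and Kdr 31 and 10. Keratinocyte genes summed to 8.12 and 6.48 CPM, with Sfn lower at -1.04 and Krt10 at 0.07. Melanocyte and Schwann cell genes summed to 12.1 and 13.1 CPM, with Sox10 at -0.05. Of 15 fibroblast genes, Dcn and Twist2 were higher at 2.62 and 1.15 and Fap was lower at -1.22. The part of these cells in the members' ratios was not tested.

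**Figure D4:**
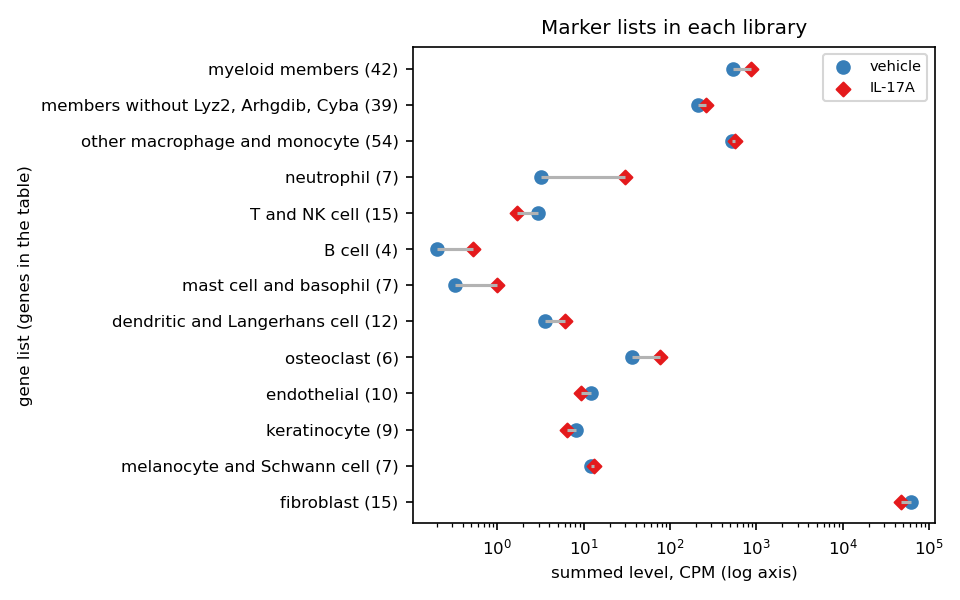
Summed level in CPM (log axis) of each marker list in the vehicle library (blue circles) and the IL-17A library (red diamonds), with the number of genes in the table in brackets. The myeloid members stand at 542.8 and 873.5 CPM, T and NK cell genes at 2.92 and 1.69, and fibroblast genes at 61792 and 46998.

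Counts of 11 members rest on exons that overlap another annotated gene, and the strand setting of the counting is not given in the sources used here. Csf1r shares 873 exon bases with Hmgxb3 on the opposite strand, a gene with 1316 and 1425 counts, and Ncf1 shares 408 with Gtf2ird2, with 250 and 337 counts. Without strand, reads of such partners cannot be told apart, so the level ratios of Csf1r and Ncf1 are uncertain. Lilrb4a shares 1846 exon bases with a gene model on its own strand. The other overlaps were of at most 460 bases, in Cx3cr1, Fcgr2b, Ptpn6, Lyn, Lcp1, Coro1a, Dock2 and Arhgdib. Lyz1, the near copy of Lyz2, had 2 vehicle and 0 IL-17A counts.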

How the data were processed

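The authors deposited raw counts for each gene symbol, 1 column per library. STAR, featureCounts and build mm10 are named in the submitters' processing notes; tool versions, annotation, strandedness and the handling of multi-mapping reads are not given there. Scaling used TMM (edgeR 4.0.16, R 4.3.3), and CPM and ratios were computed from the scaled library sizes. With 1 library per group no model could be fitted. Intervals are exact 95% Clopper-Pearson intervals for the proportion of a gene's reads that came from the IL-17A library (SciPy 1.17.1). They and the floor of 3 counts cover counting error only, because 1 library per group leaves variation between cultures unmeasured. PCR copies were not marked with molecular identifiers and count as separate reads, so the intervals may be too narrow even for counting error. RPKM used union exon lengths of GENCODE M21 on GRCm38, matched by symbol for 19307 of 19674 rows. Union exons include retained introns, which lowers RPKM. The calculation was tested on simulated counts. Promoters came from RefSeq (GRCm38.p6), with 27 of 36 measured members matched.

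Every member is named. Of each other list, the text names the 3 measured genes with the highest absolute ratio where there are as many, genes at 0, and others only for their role; of the relatives, all. Members, role groups and lists were chosen with earlier results of these data known. Alternatives were other scalings (DESeq2 1.42.0 size factors, upper quartile, total count), minimums, fold limits, a prior count of 2 and subsets of members. Listed genes with no row in the count table were not analysed here. A few genes that the rule for named genes covers are not reported here.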

Additional observations from a re-analysis of the deposited data

How the results depend on the processing

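No paired analysis was possible because each group held 1 library, and no replicate could be left out. Total-count, upper-quartile and DESeq2 scaling each left 8 members at least 2-fold higher in place of 9, the loss being Cyba, and 4 lower. The log2 ratio of the members' summed counts, 0.69, was 0.62 with total-count and 0.65 with upper-quartile scaling. It was 0.50 without Arhgdib, the member with most counts. Chosen after seeing the data, it was 0.55 without the members whose exons overlap another gene and 0.31 without Lyz2, Arhgdib and Cyba. A limit of 3-fold left 5 higher and 2 lower. A minimum of 200 summed counts left 20 members, of which 6 were higher and 0 lower, since Cx3cr1, Fcrls, Trem2 and Pld4 have fewer. Shares of all genes at these other limits and minimums were not computed, so these counts describe the members only. Depth limits the members with few counts, such as Clec4e and Clec7a, most.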

Other observations

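Other lectin-like receptor genes on chromosome 6, chosen after their values were seen, differed among themselves as the members did. Olr1, a receptor for oxidised lipoproteins, had 35 vehicle and 337 IL-17A counts, 10.5-fold higher (95% counting interval 7.38 to 15.3). Clec12a, an inhibitory lectin of myeloid cells, had 39 and 23 counts, a log2 ratio of -0.64 (interval -1.45 to 0.14). Clec4a1 had 12 and 9 counts and Clec4a3 had 5 and 7, both under the minimum of 50 summed counts. Clec2d, a ligand of natural killer cell receptors, had 720 and 598 counts, a log2 ratio of -0.15 (-0.31 to 0.01).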
